A study of Homo sapiens with 20 samples.

Results

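A set of 449 open chromatin regions was seen in every RKO list and in no LOVO list. They are 449 of the 6810 regions (6.59%) that untreated RKO cells with a hairpin against METTL3 had on chromosomes 1 to 22. Each of the 449 overlapped, by at least 1 bp, an interval in the other 4 RKO lists and none in any of the 5 LOVO lists. By contrast, 4179 of the 6810 regions (61.4%) were open in all 10 lists. The 449 regions were chosen by the presence and absence of intervals in these 10 lists, so their restriction to RKO is a description and not a finding. Their position relative to genes and their sequence were not used in the choice. The rule removed every region that touched a LOVO interval, so distances from LOVO intervals and stretches without them are descriptions too. It also required an interval in the short shMETTL3 list, which bears on widths and scores.

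ATAC-seq, in which a transposase cuts and tags accessible DNA, was applied to RKO and LOVO, established human lines labelled as colon adenocarcinoma. A short hairpin RNA either served as control (shControl) or targeted METTL3 (shMETTL3), the gene of the methyltransferase that adds N6-methyladenosine (m6A) to RNA. Either kind of cell was left untreated or given olaparib, which blocks poly(ADP-ribose) polymerases and so the repair of DNA breaks. The 20 samples fall into 8 groups: per line, untreated shControl has 4 samples, part of them labelled batch2, and the 3 other groups (shMETTL3 alone, olaparib on shControl, olaparib on shMETTL3) have 2 each. The processed files are peak lists for groups, 5 per line, with 2 forms of the untreated shControl list. All groups carry a hairpin, no group is an unmanipulated parental line, and neither the dose of olaparib nor the way the hairpin was delivered is given in the sources used here.

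The lists hold no values for single samples. There is therefore no replicate error and no test between groups, and intervals on shares below are 95% exact binomial intervals that cover counting error only. The depth is unknown. A missing interval may come from closed chromatin, from too few reads or from absent DNA, and these cannot be told apart in a peak list. The RKO lists held 21210 intervals (shControl), 27978 (shControl, merged form), 25855 (shControl with olaparib), 6916 (shMETTL3, merged form) and 35455 (shMETTL3 with olaparib). The LOVO lists were larger than the RKO list of the same group in each case, from 16417 to 51462 intervals.

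Accessible regions fall broadly into promoters, which many cell types hold open together, and distal elements such as enhancers, which differ more between cell types. A large family of zinc finger genes, named ZNF, lies in clusters on human chromosome 19. Many of its members encode KRAB zinc finger proteins, which bind DNA in a sequence-specific way and recruit the KAP1 corepressor, and many of these target transposable elements.

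The gene table of RefSeq on GRCh38.p14, the assembly family that hg38 names, was used to place the regions. Of the 449 regions, 51 overlapped a RefSeq promoter window, which runs from 250 bases before to 50 bases after a gene start. They fell on 57 windows of 52 genes, and 24 of these windows belonged to 21 ZNF genes. Stretches are shown to give the range of CpG content that is summarised further on. Printed are the bases of a region that lie before the start, on the strand of the gene, with CpG dinucleotides in capitals. The 5 ZNF genes and the 5 other genes shown had the regions that ranked highest by score among those with at least 100 such bases. The ZNF stretches lie at chr19:37370910-37371098 (plus strand), chr19:57363301-57363550 (plus strand), chr19:57578956-57579137 (minus strand), chr19:2867085-2867334 (plus strand) and chr19:44071909-44072140 (plus strand).
ZNF527: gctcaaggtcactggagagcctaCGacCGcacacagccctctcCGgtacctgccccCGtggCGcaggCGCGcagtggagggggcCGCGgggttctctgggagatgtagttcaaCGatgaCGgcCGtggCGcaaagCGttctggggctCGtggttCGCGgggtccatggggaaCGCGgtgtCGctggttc
ZNF547: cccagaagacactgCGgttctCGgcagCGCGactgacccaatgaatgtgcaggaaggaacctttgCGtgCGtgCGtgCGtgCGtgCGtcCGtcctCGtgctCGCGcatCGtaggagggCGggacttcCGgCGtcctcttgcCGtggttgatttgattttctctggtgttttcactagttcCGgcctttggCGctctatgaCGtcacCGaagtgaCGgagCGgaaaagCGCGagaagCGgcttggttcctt
ZNF416: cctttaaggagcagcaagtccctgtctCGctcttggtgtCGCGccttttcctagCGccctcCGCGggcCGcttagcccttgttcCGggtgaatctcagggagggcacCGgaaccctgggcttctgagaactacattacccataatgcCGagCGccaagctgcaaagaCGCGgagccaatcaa
ZNF556: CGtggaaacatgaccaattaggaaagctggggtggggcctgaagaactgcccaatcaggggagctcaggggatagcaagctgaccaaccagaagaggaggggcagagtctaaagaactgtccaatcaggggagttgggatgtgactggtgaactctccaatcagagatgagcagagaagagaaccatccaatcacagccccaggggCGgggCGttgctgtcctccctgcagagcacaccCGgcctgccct
ZNF284: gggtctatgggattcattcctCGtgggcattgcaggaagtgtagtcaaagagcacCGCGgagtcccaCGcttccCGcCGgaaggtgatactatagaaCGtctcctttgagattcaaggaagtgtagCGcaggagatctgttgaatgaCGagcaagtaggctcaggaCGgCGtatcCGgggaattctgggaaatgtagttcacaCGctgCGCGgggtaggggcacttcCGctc

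ZNF547 held 28 CpG in 250 bases and ZNF527 held 20 in 189, whereas ZNF556 held 4 in 250. The window of ZNF556 instead carried the pentamer CCAAT, the core of the NF-Y site, 5 times on both strands together. Only 0.369% of all 21156 promoter windows carried it at least as often. This count was singled out after the sequences were seen, and it was the highest among the 57 windows.

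The stretches of the other genes lie at chr10:128047424-128047611 (plus strand), chr22:37696798-37697047 (plus strand), chr4:152352827-152352948 (minus strand), chr22:25110893-25111127 (plus strand) and chr11:10455014-10455125 (plus strand). PTPRE encodes a receptor-type tyrosine phosphatase, TRIOBP an actin-binding protein, FBXW7 the substrate receptor of a ubiquitin ligase and AMPD3 an AMP deaminase.
PTPRE: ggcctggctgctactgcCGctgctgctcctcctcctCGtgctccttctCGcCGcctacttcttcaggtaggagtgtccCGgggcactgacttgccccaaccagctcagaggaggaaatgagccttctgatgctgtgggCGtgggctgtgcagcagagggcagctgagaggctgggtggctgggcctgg
TRIOBP: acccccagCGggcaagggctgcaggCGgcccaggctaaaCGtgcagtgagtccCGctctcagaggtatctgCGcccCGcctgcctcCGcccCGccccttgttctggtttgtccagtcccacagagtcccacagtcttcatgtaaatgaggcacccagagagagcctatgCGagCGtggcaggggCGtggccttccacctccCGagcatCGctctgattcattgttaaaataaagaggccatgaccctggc
FBXW7: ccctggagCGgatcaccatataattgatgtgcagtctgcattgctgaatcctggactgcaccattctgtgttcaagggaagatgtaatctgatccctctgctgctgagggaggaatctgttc
KIAA1671: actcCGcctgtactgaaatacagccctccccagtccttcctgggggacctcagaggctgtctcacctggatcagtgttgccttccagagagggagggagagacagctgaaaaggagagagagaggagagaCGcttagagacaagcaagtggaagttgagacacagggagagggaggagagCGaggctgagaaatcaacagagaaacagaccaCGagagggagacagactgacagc
AMPD3: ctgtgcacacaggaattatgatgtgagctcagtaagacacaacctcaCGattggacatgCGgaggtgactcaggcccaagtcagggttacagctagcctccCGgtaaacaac

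These 5 stretches held between 1 CpG (FBXW7) and 13 CpG (TRIOBP). Those of TRIOBP and AMPD3 each contained 1 match to the AP-1 motif TGANTCA. LOVO lists were not empty at these genes: taken over all listed starts of a gene, PTPRE, FBXW7 and AMPD3 were also open in all 5 LOVO lists and TRIOBP in 3, while KIAA1671 was open in none.

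Relative to genes, the RKO-only regions were mostly distal. A region was placed at a start or end when it came within 1000 bp of a listed start or annotated end of a protein-coding gene. This held for 105 of 449 (23.4%, interval 19.5 to 27.6%), against 81.6% (80.4 to 82.8%) of the regions open in all 10 lists and 69.8% of all 6810. At a listed start lay 73 RKO-only regions (16.3%), beside 57.5% of all RKO shMETTL3 regions. Inside a gene but away from its ends lay 175 (39.0%), between genes 151 (33.6%), at another end 32 (7.13%) and at the start of another kind of gene 18 (4.01%). The mirror set, open in every LOVO list and no RKO list, counted 5795 regions and had a smaller share at a start or end, 6.99%. It was drawn from the longer LOVO shMETTL3 list, whose own share was not determined. The start table covers 15101 of 19126 protein-coding genes, so a region at another end may sit at a start that is not listed. None of the chromosome 8 genes given an RKO-only region had a listed start. The 33 RKO-only regions of chromosome 8 are therefore absent from the counts at listed starts and from the promoter windows. Exons, introns and UTRs could not be told apart.

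**Figure D1:**
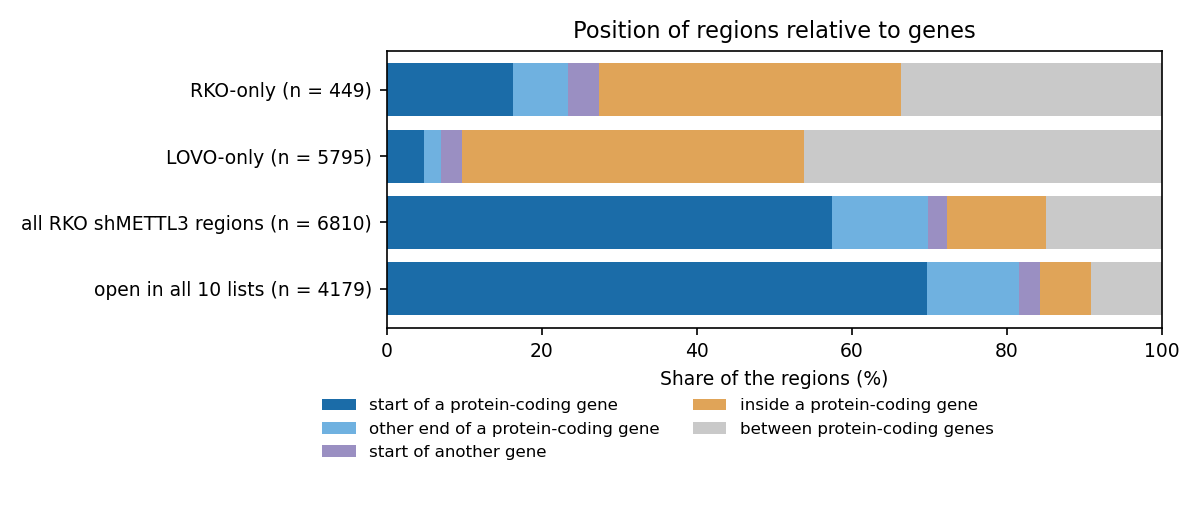
Position of regions relative to genes, as the share of regions in percent (horizontal axis), for the RKO-only regions, the LOVO-only regions, all RKO shMETTL3 regions and the regions open in all 10 lists. The dark and light blue parts together, a start or another end of a protein-coding gene, cover 23.4% of the RKO-only regions and 81.6% of those open in all 10 lists.

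Few of the 449 regions touched a gene start or end, and they were spread over many genes. Of 19126 protein-coding genes, 115 (0.601%) had an RKO-only region at a start or end, and 73 of 15101 (0.483%) had one at a listed start. When each region was given to the gene around it or to the nearest one within 50000 bp, 387 regions went to 366 genes (1.91% of 19126), and 62 had no gene that near. Of the genes, 17 received 2 regions and 2 received 3. For 227 regions away from a start the assigned gene had a listed start. That start was open in all 10 lists for 60 of them (26.4%), in all RKO lists and no LOVO list for 2, and in no list for 41 (18.1%). Over all 15101 genes with a listed start the shares were 22.9, 0.291 and 32.3%. The largest class, 120 of the 227 (52.9%), had a start open in only part of the lists of at least 1 line.

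Chromosome 19 held the highest share of RKO-only regions. There 50 of 429 regions were RKO-only (11.7%, 8.78 to 15.1%), and chromosome 9 followed with 40 of 411 (9.73%, 7.04 to 13.0%). Both intervals lie above the 6.59% of all chromosomes. On chromosome 8 the count was 33 of 357 (9.24%, 6.45 to 12.7%), and chromosome 3 was lowest at 4.28%. Chromosome X is outside the rule; the same pattern was met there by 11 of 106 regions.

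**Figure D2:**
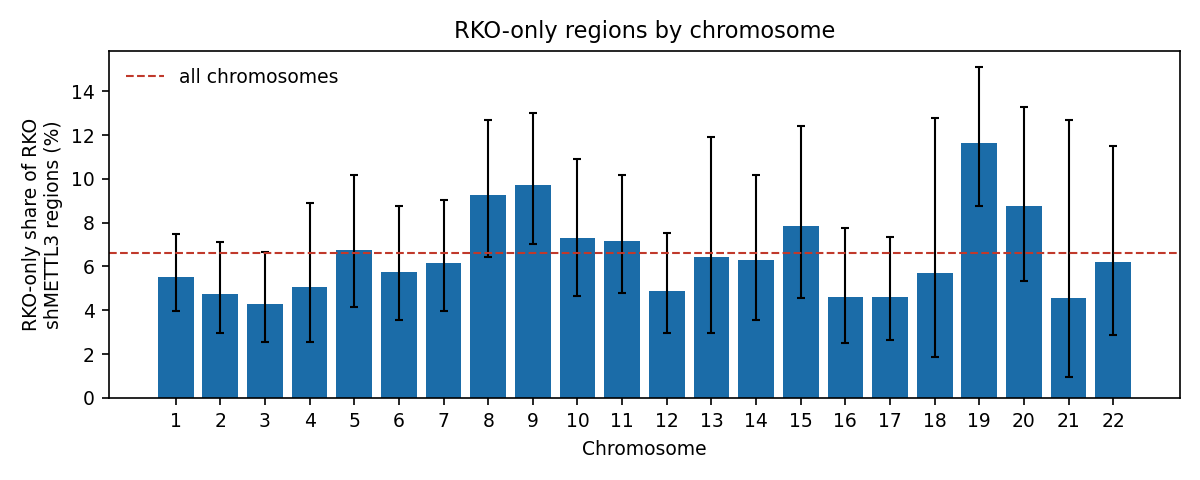
RKO-only regions as a share of all RKO shMETTL3 regions of each chromosome (bars, percent), with 95% exact binomial intervals for counting error and the share over all chromosomes as a dashed line. Chromosome 19 stands highest, at 11.7%, and its interval and that of chromosome 9 start above the dashed line, at 8.78% and 7.04%.

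On chromosome 19 the RKO-only regions gathered at zinc finger genes, a grouping chosen after the values were seen. Starts of 24 ZNF genes had an RKO-only region. Of these, 21 are on chromosome 19, and ZNF140 is on chromosome 12, ZNF300 on chromosome 5 and ZNF79 on chromosome 9. Read gene by gene, 20 of the 216 chromosome 19 ZNF genes with a listed start (9.26%) were open there in every RKO list and no LOVO list, and 3 (1.39%) showed the reverse. Over all 15101 genes the same states were met by 44 (0.291%) and 208 (1.38%). The other 969 genes of chromosome 19 gave 2 (0.206%) and 5. Most zinc finger starts showed neither of these states. Of the 216, 51 were open in all 10 lists and 50 in none, and the rest in only part of the lists of at least 1 line. Counted by line, 84 of the 216 (38.9%) were open in all RKO lists and 69 (31.9%) in all LOVO lists.

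Scores, the authors' own value per peak, are given as percentiles within the shControl, shControl olaparib and shMETTL3 olaparib lists, in that order. At the 24 ZNF starts the median percentiles were 70.6, 72.1 and 73.9, below the 73.4, 78.9 and 81.7 of all 449 regions. They were above the 65.4, 69.0 and 70.8 of all 73 RKO-only regions at a listed start, ZNF starts included. The region at the start of ZNF527 was one of the highest among the ZNF starts. Its interval was 494 bp wide with shMETTL3, 813 bp in the merged shControl list, 507 bp in the scored shControl list, 633 bp with olaparib and 670 bp with both. Its percentiles were 98.2, 97.7 and 98.6. All 3 scored lists thus placed it near their top. ZNF547 was alike, at percentiles 99.3, 97.6 and 95.8, and so was ZNF416 at 96.1, 95.1 and 96.5. At ZNF556 the percentiles were 92.6, 92.2 and 99.2. At ZNF567 the interval was 535 bp with shMETTL3, 1028 bp in the merged shControl list and 473 bp in the scored shControl list. Its percentiles were 90.9, 81.1 and 78.6. The region at an end of ZNF233 reached 98.0, 99.8 and 99.2. Other zinc finger starts ranked lower, such as ZNF300 at 33.0, 87.7 and 63.2. ZNF140 stood at 72.1 of the shControl olaparib list and 21.3 of the shMETTL3 olaparib list. Its percentile in the untreated shControl list was lower than both.

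These zinc finger regions also lay far from LOVO intervals. The median distance to the nearest one was 131773 bp for the 21 on chromosome 19, against 10075 bp for all 449 and 4421 bp for the 76 regions at a start or end of genes other than ZNF genes. The longest such distance on chromosome 19 was that of ZNF567, 471688 bp. Exceptions were ZNF575, 604 bp from a LOVO interval, and ZNF79, 11 bp from one, whose starts were both open in 4 LOVO lists.

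Several of these starts lay together in stretches without any LOVO interval. The stretch at chr19:36215353-37210350 spans 995 kb and 18 protein-coding genes, 16 of them ZNF genes, and held 5 RKO-only regions, at ZFP14, ZNF566, ZNF260, ZNF567 and ZNF420. The RKO lists had 14 intervals there (shControl), 13 (merged shControl), 15 (shControl with olaparib), 5 (shMETTL3) and 22 (shMETTL3 with olaparib). The next stretch, chr19:37218642-37869696 (651 kb), held 4, at ZNF875, ZNF527, ZNF571 with ZNF540, and ZNF607. The 8.29 kb between these stretches, at ZNF585B and ZNF383, held the only LOVO intervals of the whole 1.65 Mb: 1 in the shMETTL3 list and 2 in each of the other 4 LOVO lists. The LOVO lists were thus not empty across the block. A further stretch of 287 kb, chr19:44212740-44499981, held 3 RKO-only regions, at ZNF233, ZNF235 and ZNF112.

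**Figure D3:**
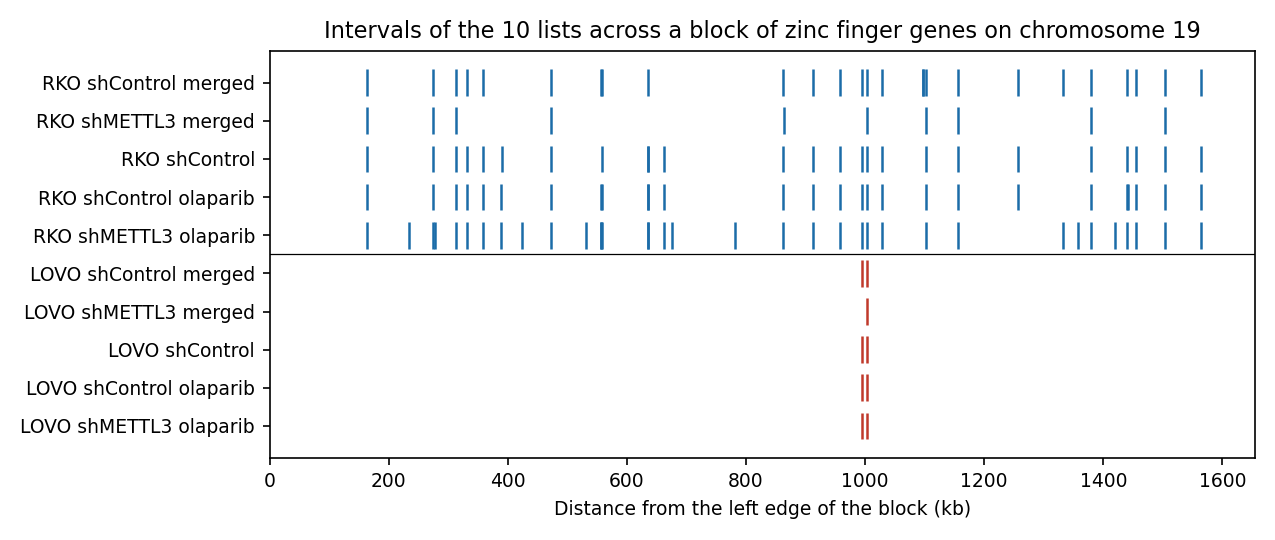
Intervals of the 10 lists (rows) across the 1.65 Mb block of chromosome 19 that joins the 995 kb and 651 kb stretches, by distance in kb from its left edge; each tick is 1 interval, blue for RKO and red for LOVO. RKO lists have between 10 and 35 ticks spread along the block, and LOVO lists have 1 or 2, all near 1000 kb.

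Most RKO-only regions stood alone. Of the LOVO-free stretches with an RKO-only region, 389 held 1, 20 held 2 and 5 held 3 or more. Outside chromosome 19, a stretch of 1900 kb on chromosome 8 held 4 such regions and a stretch of 74.9 kb on chromosome 15 held 3, all in EFL1.

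CpG content set the promoters of this group apart from the promoters open in both lines. Of the 57 windows with an RKO-only region, 64.9% had an observed to expected CpG ratio of at least 0.6, close to the 62.6% of all 21156 windows and below the 94.1% of windows with a region open in all 10 lists. The 24 ZNF windows reached 79.2%, near the 76.1% of all ZNF windows of chromosome 19, and the 33 others 54.5%. For the LOVO-only regions the share was 46.7%. Median CpG numbers per 300 bp were 20 for the RKO-only windows, 28 for those open in all 10 lists and 13 for the LOVO-only ones.

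Of 17 motifs searched on both strands of these windows, 9 were more frequent in the 57 windows than in all promoters. The ETS motif CCGGAAG was found in 9 of the 24 ZNF windows (37.5%) and in 1 of the 33 others (3.03%). Over all promoters the share was 12.9%, and over all ZNF windows of chromosome 19 it was 40.7%, so the ZNF windows with an RKO-only region were near other ZNF windows. CCAAT was present in 45.6% of the windows, against 34.4% of all promoters and 45.3% of the promoters of genes open in all 10 lists. The AP-1 motif TGANTCA was present in 8.77%, against 6.08%. The HNF4 motif CAAAGTCCA and the ZBTB33 motif CTCGCGAG were in none of the 57, and in 0.369% and 1.38% of all. With so few windows, a difference of a few windows moves these shares by several percentage points. A further hexamer, ACTACA or TGTAGT, was searched after the stretches above had been seen. It was in 13 of 24 ZNF windows with an RKO-only region (54.2%), not all of them on chromosome 19. The share was 24.0% in chromosome 19 ZNF windows without such a region and 7.99% in all promoters. The 13 include ZNF527, ZNF416 and ZNF284, whose printed stretches carry it, so the higher share is partly set by the choice of hexamer.

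RKO-only regions were narrower than those open in all 10 lists and had similar median ranks by score. Both sets were picked for an interval in the short shMETTL3 list, so a rank above the middle of the other lists is no finding. Their median width in the merged shControl list was 504 bp (quartiles 353 and 718 bp), against 872 bp for regions open in all 10 lists and 429 bp for the whole list. With shMETTL3 the medians were 221, 283 and 253 bp. In the shControl, shControl olaparib and shMETTL3 olaparib lists the RKO-only medians were 359, 416 and 420 bp and those of the regions open in all 10 lists 517, 639 and 601 bp. Comparing the same regions, the merged shControl interval was wider than the shMETTL3 one at 427 of 449, by a median ratio of 2.07, and regions open in all 10 lists gave 2.87. Under olaparib the shMETTL3 interval was wider than the shControl one at 246 of the 449 and narrower at 199, with a median ratio of 1.01. The untreated shMETTL3 list is the shortest RKO list and had the narrowest intervals (whole-list median 253 bp). The longest list, shMETTL3 with olaparib, had 276 bp, but it is a scored list and the shortest a merged one. The 2 forms of the shControl list differed as well, at 429 bp (merged) and 297 bp (scored). A link of width to list length or depth was not tested.

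**Figure D4:**
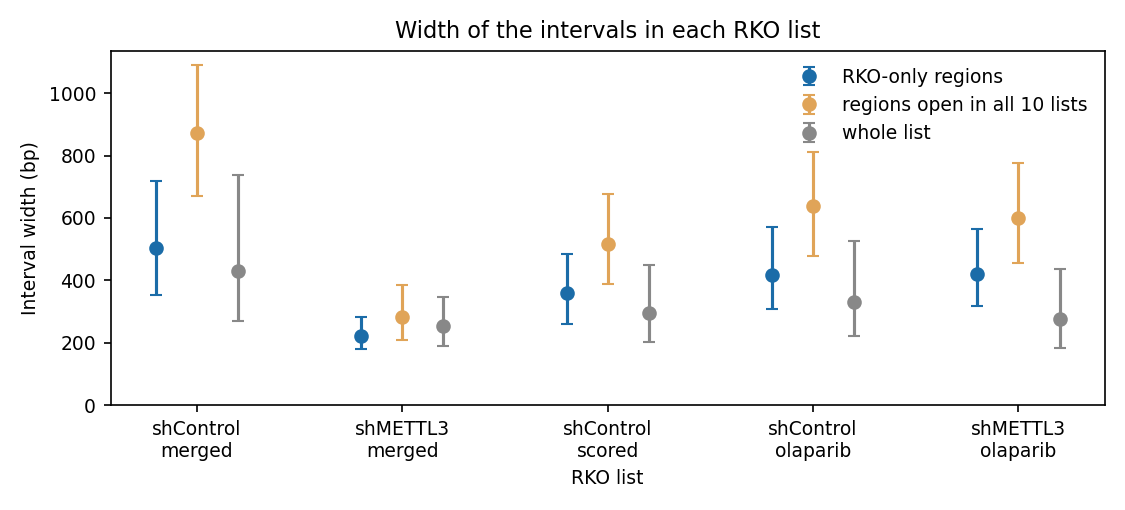
Interval widths in base pairs in the 5 RKO lists, for the RKO-only regions, the regions open in all 10 lists and the whole list; points are medians and bars span the quartiles. In the merged shControl list the medians are 504, 872 and 429 bp, and with untreated shMETTL3 they are 221, 283 and 253 bp.

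By score, the median RKO-only region stood at percentile 73.4 of the shControl list, 78.9 of the shControl olaparib list and 81.7 of the shMETTL3 olaparib list. Regions open in all 10 lists had similar medians, 74.5, 77.0 and 79.8. In the top 10% of each list stood 29.0, 33.6 and 38.1% of the RKO-only regions, against 22.6, 24.6 and 27.8% of those open in all 10 lists. Distal regions had the higher ranks: medians inside genes were 76.4, 84.2 and 88.8 and between genes 77.1, 83.8 and 87.7, whereas at starts they were 65.4, 69.0 and 70.8. Widths ran the other way, with merged shControl medians of 760 bp at starts, 464 bp inside genes and 439 bp between genes. The lists differ in length, so a difference in percentile between them shows no change.

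The 20 regions with the highest lowest percentile over the 3 scored lists were all away from gene starts, 11 inside genes and 9 between them. First stood a region in DIP2B, chr12:50597525-50597696, at percentile 99.9 in each of the 3 lists with scores of 20.6, 22.2 and 25.4. Next came a region 16356 bp from SYNCRIP, which encodes an hnRNP protein that binds RNA, with scores of 19.9, 20.6 and 27.3. Others lay in DPF3 (a subunit of a BAF chromatin remodelling complex), BMP6 (a BMP ligand), HIPK2 (a protein kinase), RGS20 (a regulator of G protein signalling), DIP2C, SLC46A2 and DENND3. Beyond gene bodies were regions near DAPK1, JDP2 (a bZIP repressor of the AP-1 family) and PAQR9, and at over 50000 bp from FGF1 and DLG1. CACNA1C, the pore subunit of an L-type calcium channel, held 2 of the 20, and its listed start was open in no list of either line.

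EFL1, a GTPase of ribosome maturation, had 3 regions, all inside it. They lie at chr15:82132863-82133190, chr15:82147093-82147318 and chr15:82160052-82160268. The last ranked highest, at percentiles 99.8, 99.7 and 99.8, and the middle one lowest, at 81.0, 71.7 and 59.4. The start of EFL1 was open in all 10 lists, so LOVO had an interval at the start but not at these distal regions.

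Most genes of the named pathway and cell type lists had no RKO-only region. Of 434 genes in 21 lists, 3 had an RKO-only region at an end (0.691%), among them FOSL1 and ISG15, beside 0.601% of all protein-coding genes. An assigned region was found for 18 (4.15%), beside 1.91% of all. No gene had one assigned in 11 lists: keratin, junction and brush border genes, EMT transcription factors, TGF-beta and BMP signalling, Wnt, HOX, endothelial, leukocyte and neuronal markers, mismatch repair, m6A machinery and housekeeping genes. In the keratin list the starts of 5 of 23 genes showed the opposite state, open in all LOVO lists and in no RKO list. Over all 15101 genes with a listed start, 208 (1.38%) did. The state was also met by 2 of the 22 gut epithelial transcription factors. The TGF-beta and BMP, receptor tyrosine kinase, and antigen presentation lists had 1 such gene each, and the remaining lists had none. Of 22 gut epithelial transcription factors, only GATA4 had an RKO-only region, inside the gene, at percentiles 79.7, 70.4 and 81.7.

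Integrins and adhesion adaptors were the list with the most genes, 5 of 24 (20.8%): ITGA2, ITGA3 and ITGB1, which encode integrin chains, PXN (paxillin, a focal adhesion adaptor) and FLNC (filamin C, an actin crosslinker). The shorter liver and kidney list had a close share, 2 of 10 genes. Over all protein-coding genes, 1.91% had an assigned region. None of the regions of the 5 adhesion genes lay at a gene end. The region 2646 bp from FLNC ranked highest, at 99.2, 98.9 and 97.5, although the listed start of FLNC was open in no list. The region 3690 bp from ITGB1 stood at 46.2, 42.6 and 26.2 and the one inside ITGA2 at 38.2, 49.6 and 70.5, and both starts were open in all 10 lists. ITGA3 (67.0, 71.6 and 87.0) and PXN (38.2, 25.3 and 20.1) lay 465 and 2816 bp from a LOVO interval. The lists were chosen with earlier results of these data known.

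Growth factor signalling genes followed. The receptor tyrosine kinase genes AXL, FGFR1 and INSR each had a region inside the gene. Over the 3 scored lists the percentiles ran from 9.66 to 30.2 for AXL, from 44.2 to 54.9 for FGFR1 and from 61.8 to 79.7 for INSR. DUSP4 and DUSP5, whose phosphatases act on MAP kinases, each had an assigned region between genes, at 46.7, 91.1 and 93.7 for DUSP4 and 38.9, 43.8 and 55.4 for DUSP5. At one end of FOSL1, which encodes a Fos-family subunit of AP-1, the region at chr11:65892033-65892545 was 513 bp wide with shMETTL3 and 2113 bp in the scored shControl list. Its percentiles were 5.28, 1.98 and 2.61, and a LOVO interval lay 516 bp away. This region was thus wide and low in score.

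Other list genes were ISG15, of the interferon and antigen presentation list, PAX8 and CUBN, of the liver and kidney list, and STK31, of the germline list. The region at the start of ISG15, an interferon-induced ubiquitin-like protein, was 1293 bp wide in the merged shControl list and lay 129 bp from a LOVO interval, and the start of the gene was open in all 10 lists. CUBN, which encodes the endocytic receptor cubilin, had one of the 10 widest regions, 482 bp with shMETTL3. The starts of PAX8 and CUBN were open in no list. STK31 stood at 81.1, 93.8 and 97.9.

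The widest RKO-only region, at 915 bp, lay at the end of CAMK1G. It was followed by regions in GPSM1 (873 bp), SEMA3A (638 bp), UCP2 (611 bp), GRIN1 (602 bp), ZNF567 (535 bp) and UPP1 (525 bp). The region at the start of UCP2, a mitochondrial carrier, was 1151 bp in the merged shControl list, with percentiles of 85.9, 70.1 and 66.2, and this start was open in every RKO list and no LOVO list. Other starts with that state, chosen here after their values were seen, included those of BCL2A1, an antiapoptotic BCL2 family member (percentiles 94.2, 85.0 and 94.1), FURIN, a proprotein convertase (25.5, 56.4 and 29.5), and RXRA, the retinoid X receptor alpha (18.1, 20.3 and 8.22).

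The distance to the nearest LOVO interval had a median of 10075 bp (quartiles 2767 and 30342 bp). It was up to 1 kb for 54 regions, 1 to 10 kb for 169, 10 to 50 kb for 155 and longer for 71. LOVO-only regions lay farther from RKO intervals, at a median of 20392 bp, but each RKO list is shorter than the LOVO list of its group. Just inside the rule were regions 8 bp from a LOVO interval, in DLG2 and MMP17, and others 11 or 12 bp away, near DEFB108B and GIP and at the start of ZNF79. Just outside it were 168 regions that met 1 LOVO list, which for 108 of them was shMETTL3 with olaparib, the longest list. A further 129, 275 and 776 met 2, 3 and 4 LOVO lists. The farthest were a region of chromosome 7 at 1525689 bp, one at the start of TUSC1 at 1045890 bp, another of chromosome 7 at 751893 bp, one of chromosome 20 at 727868 bp and one in ZFPM2 at 553010 bp.

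The untreated shMETTL3 list limits the number of these regions. Without it, 2442 regions of the merged shControl list met the 3 scored RKO lists and no LOVO list, and 423 of these (17.3%, 15.8 to 18.9%) had an shMETTL3 interval. Of the 7631 control regions that met all 5 LOVO lists, 4253 did (55.7%, 54.6 to 56.9%). Regions that met 1, 2, 3 or 4 LOVO lists gave 17.6, 14.0, 20.4 and 27.7%, so the low share was not particular to regions without a LOVO interval. This comparison was chosen after the data were seen. Meeting all 5 LOVO lists includes the LOVO lists with shMETTL3. When only the 3 LOVO shControl lists were used, the shares were 17.8% (16.4 to 19.2%) of 2989 regions that met none and 48.3% (47.4 to 49.3%) of 10426 that met all 3. With all 5 lists, the control regions without a LOVO interval were narrower, 373 against 807 bp at the median, and within 4 classes of width the shares were 10.2 against 20.3%, 21.1 against 43.7%, 32.1 against 62.1% and 38.2 against 66.1%. The intervals of the shares did not overlap in any of these classes. They cover counting error only and regions are not replicates, so this is no test. Inside each class the regions that met all 5 LOVO lists still had the larger median width, so the classes did not fully remove the difference in width. At a start or end of a gene the shares were 18.9 and 62.3%, and elsewhere 16.9 and 37.5%. Score, depth and the spread between samples were not part of that comparison.

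**Figure D5:**
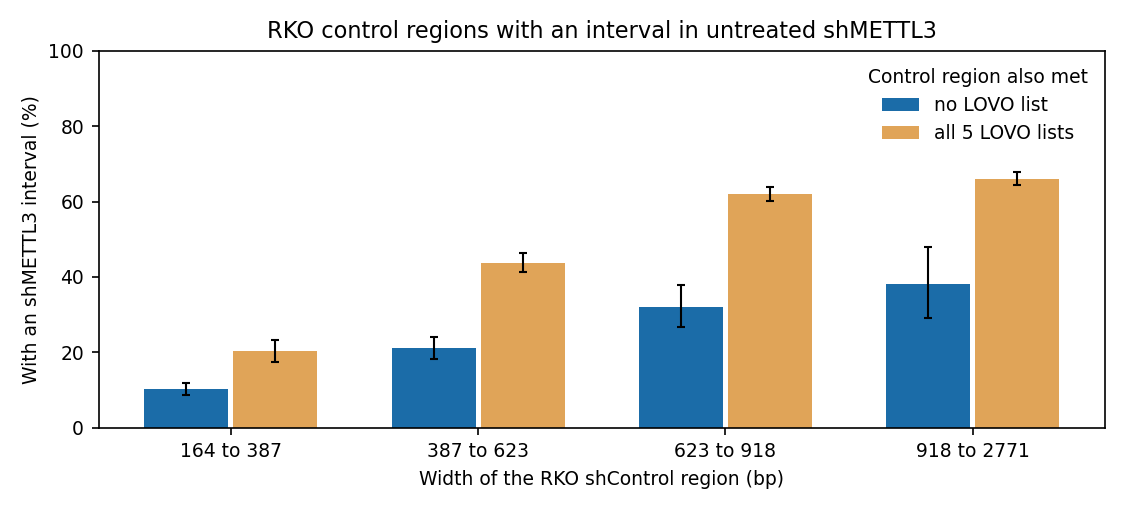
Share of merged RKO shControl regions with an interval in untreated RKO shMETTL3 (vertical axis, percent), by width of the control region in bp, for regions that met no LOVO list (blue) and all 5 LOVO lists (orange), with 95% exact binomial intervals for counting error. The blue bar is the lower one in each class, from 10.2 against 20.3% in the narrowest to 38.2 against 66.1% in the widest. With only the 3 LOVO shControl lists (not drawn), these classes gave 10.7 against 17.0% and 36.3 against 61.1%.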

How the data were processed

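Libraries of 20 samples were made with a transposase-based kit, per the labels' protocols. The submitters' processing notes name DiffBind 3.0.15, MACS2 2.2.7.1, Bowtie2 2.4.2, Trim Galore 0.6.6 and the build hg38, and give no role for them. Read shifting, read filtering and the way samples of a group were combined are not given in the sources used here. All 10 lists are as deposited. In 3 lists per line the authors gave each interval a score from their peak calling, and its peak name carries replicate 1. The MACS2 column behind this score is not stated, so it served only for ranks within its list. The other 2 lists per line (merged) hold intervals only. Which untreated shControl list holds the batch2 samples is not stated, so batch could not be separated.

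The members and gene lists were chosen with earlier results of these data known. Overlap needed 1 bp. The overlap code was tested on simulated data. Widths are those of the widest partner and scores those of the highest-scoring partner. A percentile is the rank of a score within its list. Genes, gene starts and promoter sequences came from RefSeq (GRCh38.p14). Named are list genes with a region at an end (1000 bp) or assigned within 50000 bp, the 20 best-ranked and 10 widest regions, genes with at least 3 regions, and the 5 regions nearest to and the 5 farthest from a LOVO interval; other genes were chosen after their values were seen. Some genes that this rule names are not reported here. Python 3.11.15, pandas 2.3.3 and scipy 1.17.1 were used.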

Additional observations from a re-analysis of the deposited data

How the results depend on the processing

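Of 39 alternatives, 32 left a result within 1.5 times its count or within its interval, and 7 moved it. The number of RKO-only regions, 449, was 299 when no LOVO interval was allowed within 5000 bp and 2442 when the shMETTL3 list was not required. The share at a start or end, 23.4%, was 19.2% with a window of 500 bp and 40.5% with 5000 bp. The number of list genes, 3 at a gene end, was 18 with the nearest gene within 50000 bp. The chromosome 19 ZNF genes open in every RKO list and no LOVO list, 20, were 39 when the shMETTL3 list was not required, and those of the reverse state stayed at 3. The share of RKO control regions that met all LOVO lists and had an shMETTL3 interval, 55.7%, was 48.3% when only the 3 LOVO shControl lists were used. That alternative, those without the shMETTL3 list or the LOVO shMETTL3 olaparib list, and all those on ZNF genes, were chosen after seeing the data. No paired analysis was possible because the lists are for groups and carry no value of a single replicate; leaving out replicates could not be run for the same reason. Depth is unknown, so no limit on weak regions can be given.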
